A study of Mus musculus with 6 samples.

Results

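The genes described here encode mitochondrial ribosomal proteins (MRPs). They were chosen by name alone, as every entry of the deposited gene table whose symbol begins with Mrpl or Mrps followed by a digit. This gave 76 of 23367 gene entries, 47 with Mrpl symbols and 29 with Mrps symbols. RNA-seq was performed on gastrocnemius, a calf muscle, from wild type FVB mice at 5 stages: embryonic day 18.5 (E18.5), postnatal day 2 (PN2), PN14, PN28 and adult at 22 weeks. PN14 had replicates 1 and 2, and every other stage had 1 library. The E18.5 library pooled males and females, the other libraries came from males, and the study's methods describe the E18.5 and PN2 libraries as pools of several animals.

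Mitochondria keep their own ribosome, which translates the few membrane proteins encoded by mitochondrial DNA, all of them core subunits of the oxidative phosphorylation (OXPHOS) complexes. Its protein subunits are encoded in the nucleus, made in the cytosol and imported, and they assemble on ribosomal RNAs encoded by mitochondrial DNA into a large and a small subunit. Some of these proteins have bacterial counterparts, and the others are found only in mitochondria. Skeletal muscle is known to become richer in mitochondria after birth.

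Library size ranged from 125402932 to 157868359 counts on genes. Transcript composition differed by stage. The share of counts held by the 20 top genes was 16.0% and 16.7% in the E18.5 and PN2 libraries and from 27.99% to 36.9% later. Each library was sequenced on its own lane by the column names, so lane and stage cannot be told apart. Counts and medians over gene sets are therefore given under both of the following scalings. Trimmed mean of M-values (TMM) scaling sets the bulk of genes level between libraries, whereas scaling by library size alone, which deposited FPKM (fragments scaled to gene length and library total) also follows, divides only by total counts. The 13 skeletal muscle markers summed to between 41862 FPKM at E18.5 and 171675 FPKM at PN28.

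All 76 MRP genes were detected in every library, with between 1272 and 28707 counts per gene and library, and all 76 passed the filter on low counts that kept 16882 genes. Among the 4 consecutive intervals, MRP genes were called in PN2 to PN14 alone. Under TMM scaling, 39 of 76 rose and 0 fell in edgeR's quasi-likelihood test, where a call needed a Benjamini-Hochberg adjusted p under 0.05 and at least a 2-fold change. Among all 16882 genes tested, 11.8% were called rising and 11.2% falling. The median log2 fold change was 1.02 for MRP genes and -0.01 for all genes tested. Under library size alone 3 of 76 rose and 0 fell, where the background was 5.06% rising and 29.4% falling, and the medians were 0.37 and -0.66. The distance between the MRP median and the median of all genes was 1.04 under TMM and 1.03 under library size. A change of scaling shifts all genes by nearly the same amount, so this likeness was fixed beforehand and is no separate support. The MRP median was above 0 under both scalings, while its size and the number of calls differed.

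**Figure D1:**
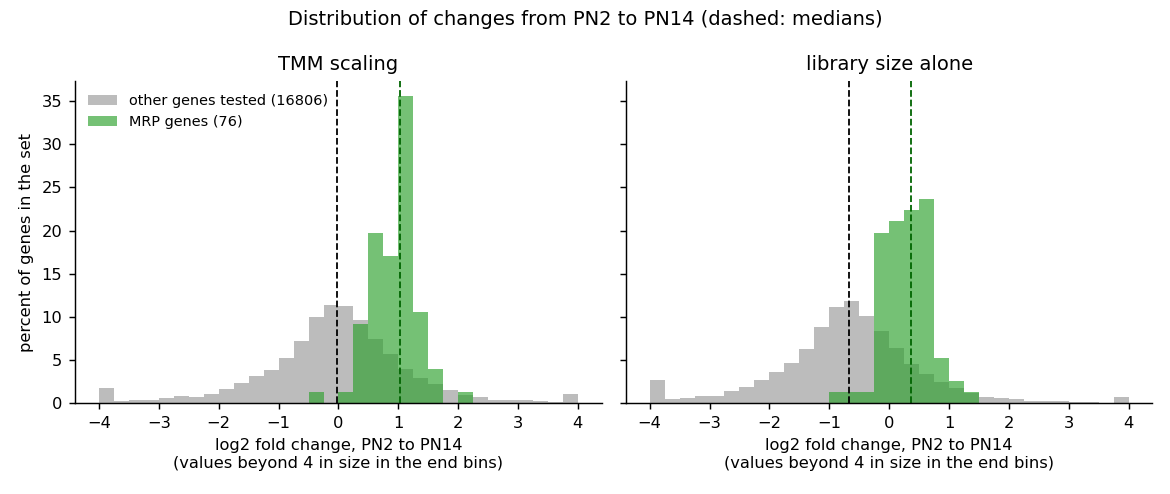
Histograms of the log2 fold change from PN2 to PN14 (x axis, 0.25-wide bins) as the percent of genes in each set (y axis), for the 76 MRP genes (green) and the other genes tested (grey), under TMM scaling (left) and library size alone (right); dashed lines are medians. The MRP genes form a narrow peak to the right of the other genes in both panels, near 1.02 on the left and 0.37 on the right.

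Among MRP genes, the log2 fold change from PN2 to PN14 ran from -0.26 to 2.07 under TMM, and 75 of 76 were higher at PN14. Under library size 58 were higher and 18 lower. With the adjusted p alone, without the 2-fold requirement, 61 rose and 0 fell under TMM in edgeR's quasi-likelihood test, against 16.6% and 15.0% of all genes. At an unadjusted p under 0.05 the number was 72, where all genes had 45.8%. DESeq2's Wald test called 38 rising and 0 falling, against 11.1% and 8.58% of all genes. The p-values rest on the spread of the PN14 pair, with 1 residual degree of freedom and moderation across genes, and assume that the other stages vary alike. Without any test, 39 MRP genes were at least 2-fold higher and 0 at least 2-fold lower at PN14 (TMM). The shares were 14.7% and 12.1% of the 13304 genes over 1 CPM (counts scaled to the library total) in either stage. Between the PN14 replicates 0 MRP genes differed 2-fold, where 1.64% of 12933 genes were higher in replicate 2 and 1.10% lower. So few genes differed there that the 0 says little about the members. Under library size the adjusted p alone gave 5 rising and 1 falling MRP genes in edgeR's quasi-likelihood test, against 1056 and 5942 of all 16882 genes. An unadjusted p under 0.05 was found there in 9 members and in 8322 of all genes. As the tissue was bulk muscle, fewer cells of a type and less RNA per cell cannot be told apart.

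MRP genes lie scattered over 17 chromosomes in mm9, the build of the deposited table. The median gene span was 7.73 kb, against 23.0 kb for the other protein-coding genes tested. Of the 76, 28 (36.8%) had the start of a protein-coding gene on the opposite strand within 1 kb of their own, compared with 13.2% of the other genes. Promoters, 250 bases before to 50 after the transcription start, were taken from RefSeq on GRCm38.p6 and existed for 67 members (73 promoters). There was no entry for Mrpl13, Mrpl15, Mrpl19, Mrpl38, Mrpl4, Mrpl54, Mrps28, Mrps34 and Mrps35. Several short motifs were searched on both strands. The ETS core CCGGAAGT, bound by GABP (also called NRF2), was in 16.4% of member promoters and 6.48% of the 15811 others. The NRF1 core GCATGCGC was in 11.0% and 4.35%, and the YY1 core AAGATGGC in 16.4% and 3.61%. These 3 factors are known to act at promoters of nuclear genes for mitochondrial proteins. At least 1 of these cores was in 39.7% of member promoters and 13.5% of the others. The E-box CACGTG (9.59% and 9.24%), TATAAA (6.85% and 8.42%) and CCAAT (41.1% and 37.1%) were closer in share, and median GC was 58.3% and 59.7%. A match is only a run of letters and was given no test.

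The windows below come from the members that held each core with the highest ranked log2 fold changes from PN2 to PN14, and are not a complete set, with 4 for the ETS core, 4 for the NRF1 core and 3 for the YY1 core. The values range from 0.72 in Mrpl9 and 0.81 in Mrpl32, which were not called, to 1.68 in Mrpl42. Each is 30 bases in the direction of transcription, with the core in capitals on either strand, and is shown so that the matches and their neighbouring bases can be read. The ETS core came first, at positions -35, -240, -90 and -3 from the start, in Mrpl48 (chr7:100583147-100583176, minus strand), Mrpl18 (chr17:12916312-12916341, minus strand), Mrpl51 (chr6:125192099-125192128, plus strand) and Mrpl33 (chr5:31613937-31613966, plus strand).
Mrpl48: gggttttaaaaACTTCCGGaaccaagatgc
Mrpl18: actgaaaacgCCGGAAGTagggggctgcgg
Mrpl51: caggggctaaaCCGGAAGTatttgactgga
Mrpl33: ccgcgcatgccCCGGAAGTagtcgttgagc
The NRF1 core lay at -12, 28, -22 and -26, in Mrpl33 (chr5:31613928-31613957, plus strand), Mrps18b (chr17:35916394-35916423, minus strand), Mrpl32 (chr13:14613041-14613070, minus strand) and Mrpl9 (chr3:94443299-94443328, plus strand). The Mrpl33 window overlaps the one above, so that both cores stand side by side at its start.
Mrpl33: taccggaacccGCGCATGCcccggaagtag
Mrps18b: gcgtgtcccgaGCATGCGCagtcgctcttc
Mrpl32: gcggacttaacGCATGCGCtcagcccgcgt
Mrpl9: ggcgcagctgcGCATGCGCggggtccttct
The YY1 core lay at 27, 36 and -30, in Mrpl42 (chr10:95501904-95501933, minus strand), Mrps24 (chr11:5707652-5707681, minus strand) and Mrpl36 (chr13:73330968-73330997, plus strand). Positions above 0 are inside the transcript.
Mrpl42: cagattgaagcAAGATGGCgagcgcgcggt
Mrps24: cgggtcgcgccggcccAAGATGGCgtggtc
Mrpl36: cgtgaccttacGCCATCTTtcttcctggcg

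Holding a core did not go with a uniformly larger change. The median log2 fold change from PN2 to PN14 (TMM) was 1.13 in the 12 members with the YY1 core, from 0.07 to 1.68, and 0.93 in the 55 without it. It was 0.80 in the 12 with the ETS core, from 0.44 to 1.30, against 1.04 in the 55 without, and 0.67 in the 8 with the NRF1 core, from 0.26 to 1.10, against 1.07 in the 59 without. The ranges with and without each core overlapped, and no test was made.

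The largest changes stood in a few members of both subunits. Mrps36 rose most from PN2 to PN14, with a log2 fold change of 2.07 ± 0.19 (SE) under TMM (adjusted p = 0.00389, edgeR quasi-likelihood). Its TMM-scaled CPM was 19.3 at E18.5, 16.9 at PN2, 69.7 and 72.0 for replicates 1 and 2 at PN14, 66.5 at PN28 and 52.2 in adult muscle. All 4 later libraries lay above both early ones, as they did in 71 members in all and in 32.9% of all genes tested. The Mrps36 protein, despite the gene's name, is known as an adaptor of the 2-oxoglutarate dehydrogenase complex (Kgd4) and not as part of the mitochondrial ribosome. Mrps21, a small-subunit protein with a bacterial counterpart, was at 17.8 CPM (TMM) at E18.5, 16.5 at PN2, 57.8 and 49.99 at PN14, 63.0 at PN28 and 70.1 in adult muscle. It rose by 1.71 ± 0.20 on the log2 scale from PN2 to PN14 and by 1.97 ± 0.22 from E18.5 to adult (adjusted p = 0.00574 and 0.00183, edgeR quasi-likelihood). Mrpl42, a large-subunit protein found only in mitochondria, was at 61.6, 53.5, 181.8 and 162.3, 207.8 and 218.3 CPM (TMM) in the same order, with rises of 1.68 ± 0.24 and 1.83 ± 0.26. Mrps36, Mrps21 and Mrpl42 were the 3 members that also rose from PN2 to PN14 under library size alone, with log2 fold changes of 1.42, 1.05 and 1.03. From E18.5 to adult 0 members were called rising under that scaling.

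Next came Mrps28 at 18.6 CPM (TMM) at E18.5, 22.2 at PN2, 68.35 and 59.9 at PN14, 66.2 at PN28 and 55.5 in adult muscle, a log2 rise of 1.53 ± 0.20 from PN2 to PN14. Mrps12, which lines the decoding centre of the small subunit, was at 7.76, 7.22, 20.6 and 19.9, 20.2 and 18.2 CPM and rose by 1.49 ± 0.19. Mrpl53, a mitochondria-specific protein of the large subunit, was at 27.9, 26.3, 75.4 and 69.4, 67.2 and 62.9 CPM and rose by 1.46 ± 0.19. In each of these 3 genes the 2 early libraries were low and the 4 later libraries were high, without overlap. These genes were picked for large rises from PN2 to PN14, so such a separation is partly built in. Under TMM 71 members had all 4 later libraries above both early ones, against 32.9% of all genes tested. Under library size the log2 fold changes of Mrps28, Mrps12 and Mrpl53 were 0.87, 0.83 and 0.80 and were not called.

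At the other end were 2 genes picked out after their values were seen. Mrps35, a mitochondria-specific small-subunit protein, was the only member lower at PN14 than at PN2 under TMM, at 34.1 CPM at E18.5, 40.2 at PN2, 32.7 and 34.5 at PN14, 30.4 at PN28 and 26.1 in adult muscle. The difference from PN2 to PN14, -0.26 ± 0.17 on the log2 scale, did not pass the test (adjusted p = 0.270, edgeR quasi-likelihood). Under library size alone Mrps35 was at 58.3 CPM at PN2 and 27.5 and 34.7 at PN14. Its log2 fold change there was the lowest of the members, at -0.91. Under that scaling 1 member fell at an adjusted p under 0.05 (edgeR quasi-likelihood) without the 2-fold requirement. Mrpl49, a mitochondria-specific large-subunit protein, stayed between 33.3 and 36.6 CPM (TMM) in the 6 libraries, with a log2 fold change of 0.07 ± 0.17. The level course was seen under TMM only. In FPKM Mrpl49 was at 30.48 at E18.5, 29.45 at PN2, 17.4 and 22.06 at PN14, 16.66 at PN28 and 14.22 in adult muscle. Its 5' neighbour Fau, which encodes a fusion of a ubiquitin-like protein and a cytosolic ribosomal protein, starts 135 bp away on the opposite strand.

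**Figure D2:**
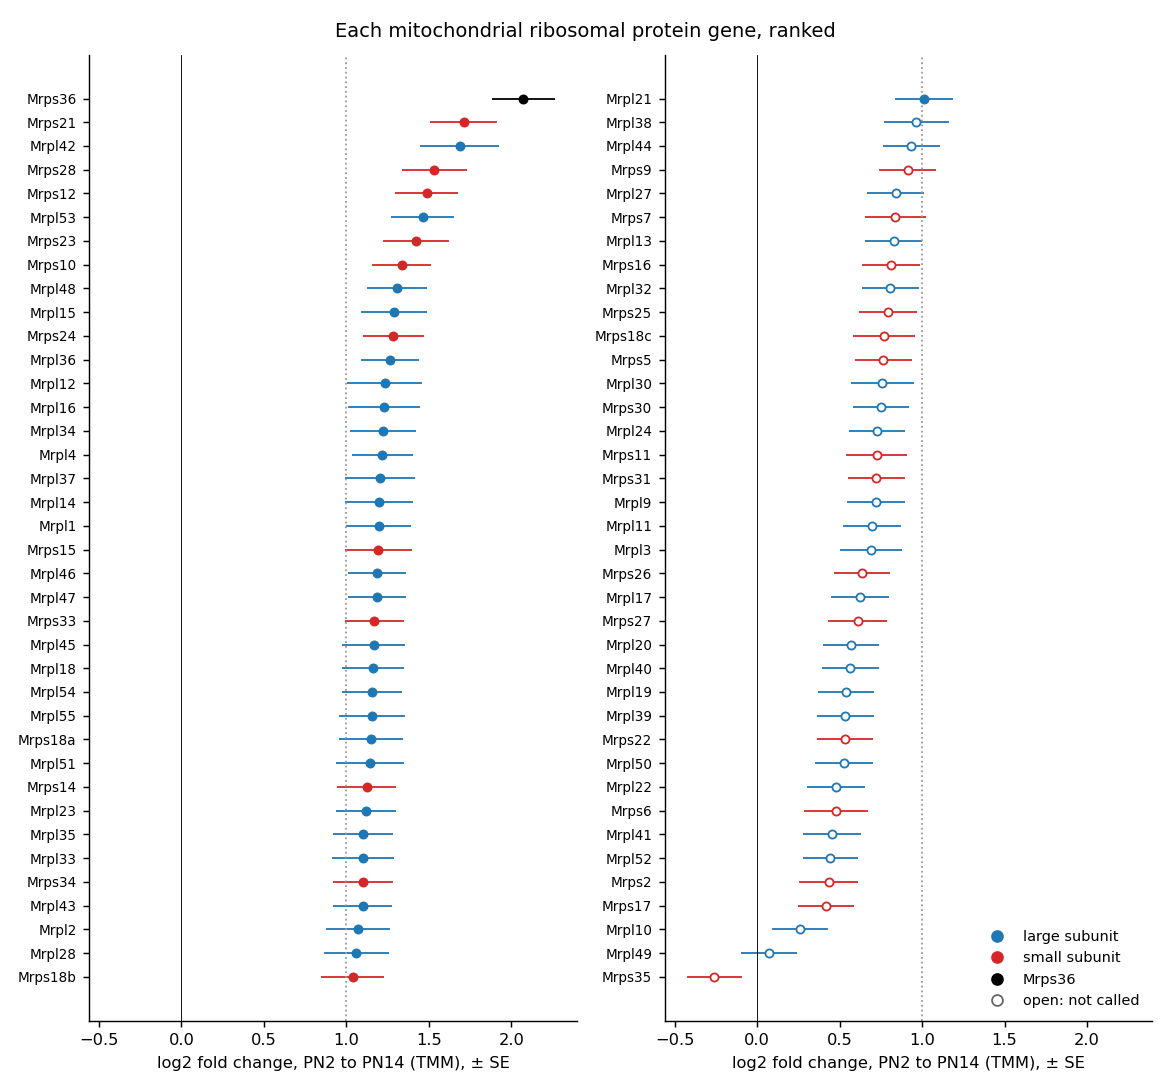
The log2 fold change from PN2 to PN14 under TMM (x axis) with its SE (bars) for each of the 76 MRP genes, ranked from top left to bottom right and coloured by subunit; filled points passed the test at 2-fold, and the dotted line marks 1. Mrps36 stands highest at 2.07, Mrps35 lowest at -0.26, and large- and small-subunit genes are mixed along the ranking.

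Of the 49 large-subunit genes, 27 rose from PN2 to PN14 and 0 fell in edgeR's quasi-likelihood test, with a median log2 fold change of 1.07 (TMM). Of the 26 small-subunit genes 11 rose and 0 fell, with a median of 0.83. The shares over all genes tested were 11.8% rising and 11.2% falling, and 16.6% and 15.0% at the adjusted p alone. At the adjusted p alone the counts were 39 of 49 and 21 of 26, and the difference between the subunits was not tested. Under library size 1 of 49 and 1 of 26 rose and 0 fell, with medians of 0.41 and 0.17. The all-gene shares there were 5.06% rising and 29.4% falling. At the adjusted p alone under library size, 2 of 49 rose and 0 fell, and 2 of 26 rose and 1 fell. Among all 16882 genes 1056 rose and 5942 fell by that criterion. From E18.5 to adult (TMM) the order of the medians was the other way, 0.96 for the large and 1.01 for the small subunit. There 24 and 13 genes rose, against 21.4% of all genes tested rising and 23.6% falling. Under library size 0 rose and 3 large- and 2 small-subunit genes fell, against 7.98% of all genes rising and 45.6% falling. The medians under library size were -0.063 and -0.019. The ratio of summed FPKM of large- to small-subunit genes was 2.46 at E18.5, 2.37 at PN2, 2.41 and 2.44 at PN14, 2.42 at PN28 and 2.33 in adult muscle, so it stayed within a narrow range while the levels moved. The 46 genes with bacterial counterparts had 24 rises and a median of 1.04 from PN2 to PN14, and the 29 mitochondria-specific genes had 14 rises and a median of 0.97 (TMM). Under library size each class had 1 rise, with medians of 0.38 and 0.30. From E18.5 to adult these were 27 rises with a median of 1.08, and 10 rises with a median of 0.83, whereas under library size 0 rose, 2 and 3 fell, and the medians were 0.057 and -0.20.

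Around the peptidyl transferase centre, where peptide bonds form, Mrpl2 rose from PN2 to PN14 by 1.07 ± 0.19 on the log2 scale (TMM), whereas Mrpl3 had a value of 0.69 ± 0.19, under the 2-fold limit. Mrpl2 was at 31.3 CPM at E18.5, 37.0 at PN2, 82.2 and 73.1 at PN14, 82.1 at PN28 and 77.1 in adult muscle. Mrpl3 was at 44.9, 46.25, 70.5 and 78.9, 68.8 and 54.1 CPM, with its highest value in PN14 replicate 2. Both genes had 4 later libraries above the 2 early ones, as had 71 members in all and 32.9% of all genes tested (TMM).

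The stalk proteins, which recruit translation factors, were unequal. Mrpl12, the stalk protein known to bind the mitochondrial RNA polymerase as well, was among the most abundant members and rose from PN2 to PN14 by 1.23 ± 0.23 on the log2 scale (TMM). It was at 89.1 CPM at E18.5, 79.3 at PN2, 182.9 and 189.7 at PN14, 187.0 at PN28 and 144.5 in adult muscle. Mrpl10, which anchors the stalk, was at 40.5, 41.4, 50.01 and 49.2, 52.9 and 49.8 CPM, and its difference on the log2 scale, 0.26 ± 0.17, did not pass (adjusted p = 0.280, edgeR quasi-likelihood). Mrpl11, at the base of the stalk, had 0.70 ± 0.18 from PN2 to PN14 and rose from E18.5 to adult by 1.03 ± 0.20 (TMM). Under library size Mrpl11 was at 37.9 CPM at E18.5 and 38.1 in adult muscle, and was not called. In FPKM Mrpl10 went the other way, from 36.1 at E18.5 and 36.9 at PN2 to 25.8 and 30.4 at PN14 and 21.8 in the adult.

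At the polypeptide exit tunnel, Mrpl23 and Mrpl45 rose from PN2 to PN14, by 1.12 ± 0.18 and 1.17 ± 0.19 on the log2 scale (TMM). Mrpl45 is the protein that tethers the ribosome to the inner membrane. Mrpl24 had 0.73 ± 0.17 and Mrpl22 had 0.48 ± 0.18, both below 2-fold. Mrpl32, which is matured by the m-AAA protease before assembly, had 0.81 ± 0.17 from PN2 to PN14 and rose by 1.11 ± 0.19 from E18.5 to adult (TMM). Under library size Mrpl32 was at 19.6 CPM at E18.5 and 20.8 in adult muscle, and was not called. Mrpl44, a protein of the large subunit with an RNase III-like fold, had 0.93 ± 0.17, just under 2-fold, and was at 20.1 CPM at E18.5, 23.7 at PN2, 45.5 and 45.1 at PN14, 39.3 at PN28 and 34.4 in adult muscle.

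In the small subunit, the changes of Mrps7 and Mrps5 over PN2 to PN14 (TMM) were 0.84 ± 0.18 and 0.77 ± 0.17 on the log2 scale, and Mrps22, a mitochondria-specific protein, had 0.53 ± 0.17. Mrps2 was at 30.3 CPM (TMM) at E18.5, 25.7 at PN2, 32.8 and 36.5 at PN14, 31.5 at PN28 and 27.2 in adult muscle. The adult thus lay between the early libraries under TMM. In FPKM it was below both, at 9.57 against 21.7 at E18.5 and 18.4 at PN2. The 3 paralogs that share an Mrps18 name occupy different places in the ribosome, and their log2 fold changes from PN2 to PN14 were 1.15 ± 0.20 for Mrps18a, 1.04 ± 0.19 for Mrps18b and 0.77 ± 0.19 for Mrps18c. From E18.5 to adult all 3 rose under TMM, by 1.59 ± 0.22, 1.48 ± 0.21 and 1.14 ± 0.21. Under library size they were not called over this course. Their CPM there went from 29.1 to 43.0, from 23.3 to 32.0 and from 16.3 to 17.6. Mrps18a and Mrps30 are large-subunit proteins in the assembled ribosome. Mrps30 had 0.75 ± 0.17 from PN2 to PN14 and 0.27 ± 0.19 from E18.5 to adult, with 22.9 CPM at E18.5, 22.7 at PN2, 38.2 and 38.4 at PN14, 35.3 at PN28 and 27.7 in adult muscle.

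Over the whole course, E18.5 to adult, 38 of 76 MRP genes rose and 0 fell under TMM in edgeR's quasi-likelihood test, against 21.4% and 23.6% of all genes. DESeq2's Wald test gave 38 and 0, against 19.4% and 18.9% of all genes, and 62 members (and 61.3% of all genes) had an unadjusted p under 0.05. The median log2 fold change was 0.99 for MRP genes and -0.05 for all genes, and 71 members were higher and 5 lower. Without a test, 38 were at least 2-fold higher and 0 lower, against 25.2% and 24.5% of all genes. Under library size 0 rose and 5 fell in edgeR's quasi-likelihood test, against 7.98% and 45.6% of all genes, 37 were higher and 39 lower, and 12 had an unadjusted p under 0.05, where all genes had 61.0%. The 5 that fell were Mrps35 (-1.41), Mrps2 (-1.18), Mrpl19 (-1.12), Mrpl49 (-1.10) and Mrpl41 (-1.09, named as 1 of the 5), and these were the 5 with values below 0 under TMM. The medians under library size were -0.033 for MRP genes and -1.08 for all genes. The distance between them was 1.05, as under TMM, since scaling shifts all genes by nearly the same amount.

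The largest rises from E18.5 to adult after Mrps21 were in Mrps23, Mrpl42, Mrps15, Mrpl16 and Mrpl55, with log2 fold changes from 1.71 to 1.84 (TMM). Mrps23, a mitochondria-specific small-subunit protein, was at 24.4 CPM at E18.5, 29.99 at PN2, 85.2 and 75.5 at PN14, 84.6 at PN28 and 87.6 in adult muscle. Mrps15 was at 20.4, 19.4, 48.3 and 40.4, 54.0 and 71.1 CPM, with the adult highest. Mrpl16, a large-subunit protein with a bacterial counterpart, was at 10.9, 13.0, 34.1 and 26.9, 35.9 and 37.3 CPM. Mrpl55 was at 5.55, 6.22, 14.1 and 13.6, 15.1 and 18.2 CPM. Under TMM the adult library was the highest of the 6 in all 4 genes. In FPKM this held for Mrps15 only, at 57.35 in the adult. Mrps23 was at 50.01 FPKM in the adult and 60.81 in PN14 replicate 2. Mrpl16 was at 24.85 FPKM in the adult and 26.77 in PN14 replicate 1. Mrpl55 was at 17.9 FPKM in the adult and 18.86 in PN14 replicate 2. Under TMM Mrpl16 differed most between the PN14 replicates, by -0.34 on the log2 scale (replicate 2 minus replicate 1), followed by Mrpl14 at -0.27.

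No MRP gene passed the test in the other 3 intervals. In edgeR's quasi-likelihood test 0 of 76 were called from E18.5 to PN2 (0.0296% of all genes), 0 between PN14 and PN28 (0.0178%) and 0 after PN28 (0.521%). The number with an unadjusted p under 0.05 was also 0 in each, where all genes had 6.64%, 8.41% and 18.3%, and 0 were called by the exact test of edgeR or the Wald test of DESeq2. So few genes were called at all in these intervals that the count says little about the members. Median log2 fold changes were 0.03, 0.02 and -0.07 under TMM, and 0.02, -0.21 and -0.20 under library size. The extremes from E18.5 to PN2 were Mrpl34 at -0.50 ± 0.22 and Mrps18c at 0.30 ± 0.21, those of PN14 to PN28 were Mrps9 at -0.25 ± 0.17 and Mrpl34 at 0.39 ± 0.19, and those after PN28 were Mrpl46 at -0.40 ± 0.19 and Mrps15 at 0.40 ± 0.22. The PN14 replicates differed by a median of -0.08 over MRP genes, from -0.34 to 0.16, which is of the size of the medians of these intervals under TMM. Under library size the median difference between the replicates was 0.18, near the size of the medians of -0.21 and -0.20.

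**Figure D3:**
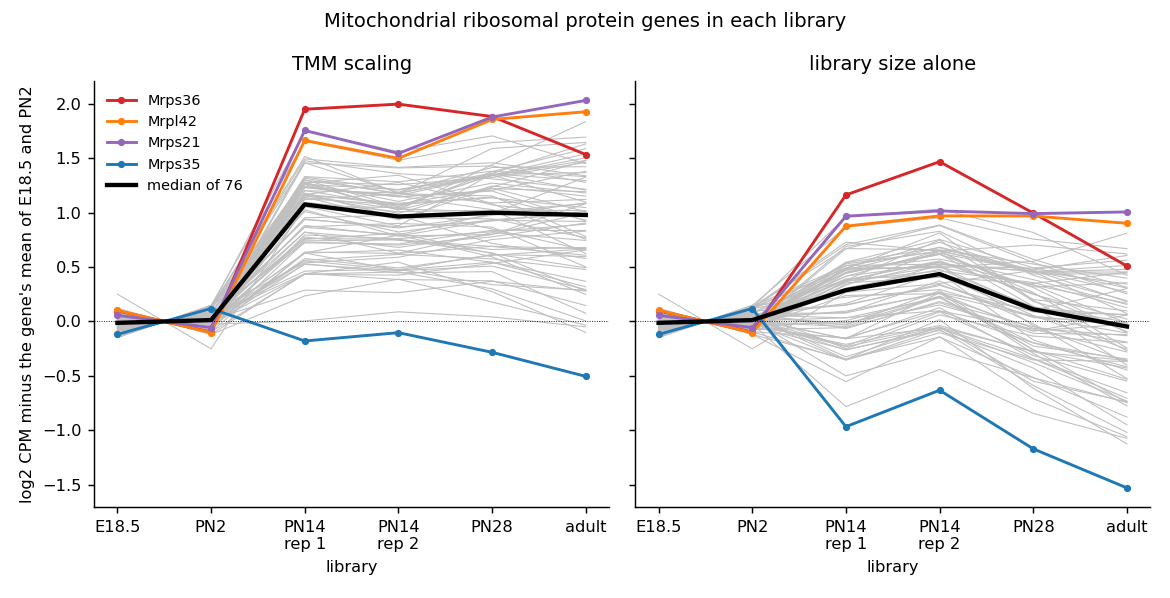
Each grey line is 1 of the 76 MRP genes, as log2 CPM minus the gene's own mean of E18.5 and PN2 (y axis) in the 6 libraries (x axis), under TMM (left) and library size alone (right), with the median in black and 4 genes in colour. Under TMM the lines step up between PN2 and PN14 and then run level, while under library size the median is highest in PN14 replicate 2 and is back near 0 in the adult, at an E18.5 to adult median of -0.033.

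By level, 71 of 76 MRP genes had all 4 later libraries above both E18.5 and PN2 under TMM, against 32.9% of all genes tested. The median TMM-scaled CPM over members was 23.2 at E18.5, 23.5 at PN2, 44.9 at PN14, 45.8 at PN28 and 45.7 in adult muscle. In FPKM 29 members had all 4 later libraries above both early ones, against 12.3% of all genes tested, and 11 had them all below, against 61.0%. The median FPKM was 29.5 at E18.5, 30.4 at PN2, 36.2 at PN14, 31.0 at PN28 and 28.1 in adult muscle. In FPKM 46 members were highest at PN14, and 37 were lowest in the adult. Under TMM the highest stage was PN14 for 28, PN28 for 21, adult for 26 and PN2 for 1 member.

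Levels between genes were compared in FPKM, per length. The mean over 6 libraries ran from 5.09 to 218.5 FPKM, with a median of 32.5. The highest was Mrpl42, at 146.4 FPKM at E18.5, 127.0 at PN2, 249.7 and 266.8 at PN14, 266.5 at PN28 and 254.7 in adult muscle. Next came Mrpl12 at 144.6, 128.7, 171.6 and 213.1, 163.9 and 115.1 FPKM, and Mrpl33, a large-subunit protein with a bacterial counterpart, at 96.0, 116.4, 150.4 and 165.4, 121.4 and 113.0 FPKM. In FPKM Mrpl42 kept its level in the adult, whereas Mrpl12 in the adult was below both early libraries. Under TMM Mrpl12 was instead above both, at 144.5 CPM in the adult, 89.1 at E18.5 and 79.3 at PN2. The lowest were Mrpl19, between 3.08 FPKM in the adult and 6.67 at E18.5, Mrps25, between 6.95 and 8.51, and Mrpl35, between 5.93 and 8.73.

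Ratios of sums within a library do not depend on the scaling between libraries. Summed MRP FPKM was 2829 at E18.5, 2883 at PN2, 3557 and 4018 at PN14, 3323 at PN28 and 2994 in adult muscle. The 77 nuclear OXPHOS subunit genes, whose products join the proteins made by the mitochondrial ribosome, summed to 7.01 times the MRP genes at E18.5, 7.76 at PN2, 12.4 and 11.9 at PN14, 10.9 at PN28 and 10.3 in adult muscle. All 4 later libraries lay above both early ones, and MRP transcripts were thus a smaller share beside OXPHOS transcripts after PN2. The 79 cytosolic ribosomal protein genes summed to 24.2 times the MRP genes at E18.5, 20.03 at PN2, 7.34 and 9.24 at PN14, 7.39 at PN28 and 8.91 in adult muscle. This ratio was lower in all 4 later libraries. No test was made of these ratios, and the SD of the PN14 pair was 0.33 for the OXPHOS ratio and 1.34 for the cytosolic ratio.

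**Figure D4:**
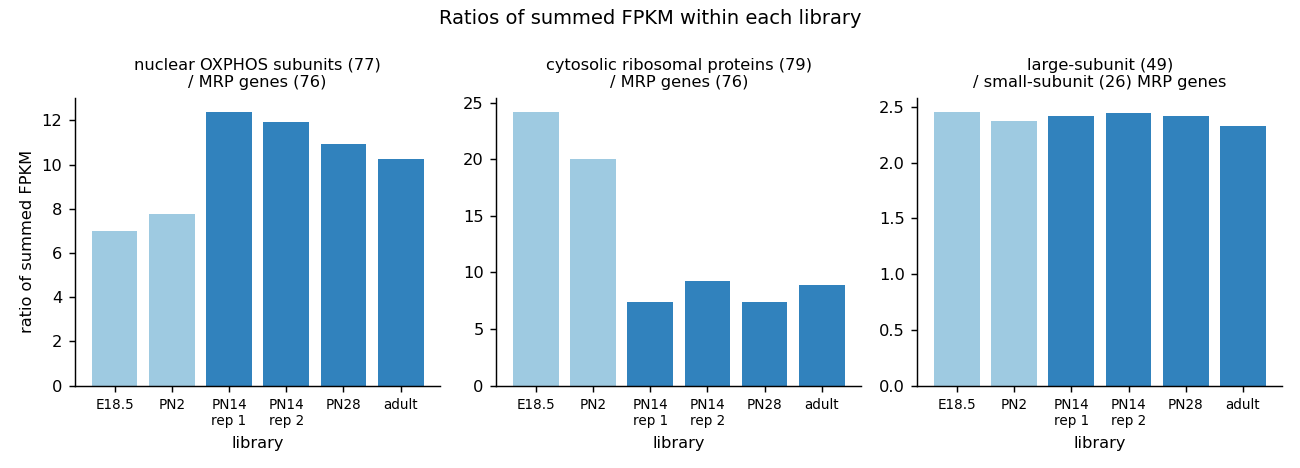
Ratios of summed FPKM within each of the 6 libraries (bars, y axis from 0): nuclear OXPHOS subunit genes over MRP genes, cytosolic ribosomal protein genes over MRP genes, and large- over small-subunit MRP genes. The first ratio goes from 7.01 and 7.76 before PN14 to between 10.3 and 12.4 after, the second from 24.2 and 20.03 to between 7.34 and 9.24, and the third stays between 2.33 and 2.46.

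The other genes of mitochondrial gene expression were read from the same fit (PN2 to PN14, TMM, edgeR quasi-likelihood). Of all genes tested 11.8% were called rising and 11.2% falling, and under library size 5.06% and 29.4%. The share of assembly genes rising under TMM was near that of all genes. Of 7 further mitochondrial ribosomal proteins that carry other names, 4 rose and 0 fell, with a median log2 fold change of 1.03, close to the 1.02 of the MRP genes. Chchd1, a small-subunit protein, rose by 1.502 ± 0.21 and Aurkaip1, another, by 1.16 ± 0.18. Of 21 mitoribosome assembly genes 3 rose and 0 fell (median 0.80), among them Mtg1, an assembly GTPase, by 1.43 ± 0.21 and Malsu1, a factor of large-subunit assembly, by 1.38 ± 0.18. Of 15 translation factors 5 rose and 0 fell (median 0.82), led by Taco1, an activator of cytochrome oxidase translation, at 2.03 ± 0.23, and by the ribosome recycling factor Gfm2 at 1.81 ± 0.26. Of 20 genes for mitochondrial tRNA charging 4 rose and 0 fell (median 0.59), and of 9 for mitochondrial transcription 3 rose and 0 fell (median 0.77). Under library size 0 of 7, 0 of 21, 2 of 15, 0 of 20 and 0 of 9 rose in the same order and 0 fell. The medians there were 0.38, 0.14, 0.16, -0.065 and 0.12. An unadjusted p under 0.05 was found in 1, 1, 4, 1 and 1 genes, against 8322 of all 16882 genes. Tfam, which packages mitochondrial DNA, had 0.77 ± 0.18 and the RNA polymerase Polrmt 0.30 ± 0.17. Both rose from E18.5 to adult under TMM, by 1.18 ± 0.20 and 1.13 ± 0.19, where 21.4% of all genes were called rising. Under library size their log2 fold changes from E18.5 to adult were only 0.16 and 0.11.

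For comparison, 71 of 77 nuclear OXPHOS genes rose and 0 fell from PN2 to PN14, with a median of 1.66, above the 1.02 of the MRP genes. Under library size the OXPHOS median was 1.005 with 40 rising and 1 falling. Of the 79 cytosolic ribosomal protein genes 0 rose and 1 fell, with 3 at an unadjusted p under 0.05 and a median of -0.23 (TMM). Under library size 0 rose and 22 fell, with 71 at an unadjusted p under 0.05 and a median of -0.87. Among all genes 11.8% rose and 11.2% fell under TMM, and 45.8% had an unadjusted p under 0.05. Under library size 5.06% rose and 29.4% fell, and 8322 of 16882 had such a p. The 1 cytosolic gene that fell under TMM was Rpl3, at -1.68 ± 0.35. MRP genes thus lay between these sets in median change, and the differences between lists were not tested.

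Marker genes of other cells moved over the same interval, in which many genes were called. Of all genes tested 11.8% rose and 11.2% fell under TMM, and 5.06% and 29.4% under library size. From PN2 to PN14 (TMM, edgeR quasi-likelihood) 3 of 13 skeletal muscle markers rose and 0 fell, 11 of 14 proliferation markers fell, and 2 of 3 satellite cell and 2 of 8 fibroblast markers fell. Under library size 11 of 13 skeletal muscle markers rose, and 14 of 14 proliferation, 3 of 3 satellite cell and 6 of 8 fibroblast markers fell. The summed FPKM of the proliferation markers was 379.3 at E18.5, 279.9 at PN2, 50.03 and 91.7 at PN14, 52.6 at PN28 and 19.9 in adult muscle, and that of the fibroblast markers was 7297, 5979, 1807 and 2181, 1937 and 530.8. Of the other lists, 2 of 6 endothelial markers rose and 0 fell, and 2 of 5 fat cell markers rose and 2 fell (TMM). Called under TMM were 0 of 6 macrophage, 0 of 5 red cell and 0 of 5 Schwann cell markers. An unadjusted p under 0.05 was found in 2, 2 and 0 of them, where all genes had 45.8%. Under library size 0 endothelial markers were called, 1 fat cell marker rose and 3 fell, and 2 macrophage, 2 red cell and 2 Schwann cell markers fell. Summed Schwann cell markers ranged from 50.2 FPKM at E18.5 to 856.9 in PN14 replicate 2, and macrophage markers from 27.95 to 75.9. No satellite, proliferation, fibroblast or macrophage marker was at 0 counts in any library. The part of these cell types in the MRP values was not tested.

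The neighbours that start head to head with MRP genes were compared over PN2 to PN14 (TMM). The 28 members with such a neighbour had a median log2 fold change of 0.89, and their 25 tested neighbours that are no members had a median of 0.18, with 2 rising and 1 falling. Under library size these medians were 0.23 and -0.48, with 1 neighbour rising and 4 falling. Of all genes tested 11.8% rose and 11.2% fell under TMM, and 5.06% and 29.4% under library size. Mrpl46 and Mrps11 face each other, with a distance of -412 bp between their starts (negative where the genes overlap), and had 1.19 ± 0.18 and 0.72 ± 0.19. Mrps12 starts 171 bp from Sars2, the mitochondrial seryl-tRNA synthetase, which had 0.86 ± 0.18. Mrpl47 overlaps the start of Ndufb5, a complex I subunit, and the latter rose by 2.18 ± 0.32 beside 1.19 ± 0.18 for Mrpl47. Mrpl13 overlaps the start of Mtbp, which fell (-1.42 ± 0.30), while Mrpl13 had 0.83 ± 0.17. Mrpl14 overlaps the start of Tmem63b, which rose by 1.04 ± 0.21 beside 1.20 ± 0.20. In all, 22 members overlap another protein-coding gene, among them Mrpl14, Mrpl19, Mrpl24, Mrpl33, Mrpl44, Mrpl46, Mrpl49, Mrpl53, Mrps7, Mrps18a and Mrps25 of those described above. Since the strand setting of the counting is not given in the sources used here, reads of such pairs cannot be told apart with certainty. These neighbours other than Mrps11 and Mrpl46 were named after their values were seen.

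In place, the members named most often above are, in mm9, Mrps36 at chr13:101505910-101514614 (minus strand), Mrps21 at chr3:95666557-95675442 (minus), Mrpl42 at chr10:94943440-94964561 (minus), Mrps12 at chr7:29524660-29526839 (minus), Mrpl12 at chr11:120345927-120350379 (plus) and Mrps35 at chr6:146991286-147019425 (plus). Of these 6, none overlaps another annotated protein-coding gene, and other gene types were not searched.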

How the data were processed

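Poly(A)-selected RNA from 6 gastrocnemius libraries was sequenced by the authors as paired-end reads, which they aligned to mm9 with TopHat2 2.0.5. The authors deposited expected counts of fragments on RefSeq gene models from RSEM, without normalization and whole in the file, and FPKM from the same program, per gene length and total counts. The version of RSEM is not given in the sources used here. The counts were fitted across all 6 libraries with edgeR 4.0.16 (R 4.3.3; TMM, filterByExpr by stage, glmQLFit and glmQLFTest), with Benjamini-Hochberg adjustment over 16882 genes. The deposit's counts on genes, from 125402932 to 157868359, put 3 counts at or under 0.0239 CPM, so depth did not limit detection of the members. The common biological coefficient of variation was 0.188. DESeq2 1.42.0 was an alternative. The PN14 replicates were separate mice. The p-values of the quasi-likelihood test take their error from the spread of this pair, with 1 residual degree of freedom. That spread was moderated across genes, with 4.857 prior degrees of freedom. It gives no measure of the variation at the other stages, E18.5 and PN2 pools included. SE was taken as the log2 fold change over the square root of F. Values without a test used log2 (CPM + 0.1).

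Members and lists were chosen with earlier results of these data known. Subunits and roles follow general knowledge of the ribosome. Named members were, per comparison, up to 6 largest called rises and falls or else the extremes, the 3 highest and 3 lowest in mean FPKM, members with known roles, and the 2 most different between the PN14 replicates. Other genes were named from the lists, at most 4 each. Positions came from GENCODE M1 (mm9). The procedure was tested on simulated data. A further promoter window is not reported here.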

Additional observations from a re-analysis of the deposited data

How the results depend on the processing

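The choice of scaling moved the results most. From PN2 to PN14 the number of MRP genes called was 39 under TMM, 3 under library size alone and 61 with the adjusted p alone under TMM (edgeR quasi-likelihood). The number differing 2-fold without a test fell from 39 to 3 under library size. From E18.5 to adult the called number was 38 rising under TMM and 5, all falling, under library size, and without a test also 5. The median log2 fold change from PN2 to PN14 was 0.37 under library size, 0.36 and 0.35 in FPKM with pseudocounts of 0.1 and 1, and 0.94 and 1.06 with either PN14 replicate left out. From PN14 to PN28 it was -0.21 under library size and -0.21 and -0.20 in FPKM, and -0.03 and 0.07 with a replicate left out. From PN28 to adult it was -0.20 under library size and -0.20 and -0.19 in FPKM, and from E18.5 to adult -0.033, -0.034 and -0.034. With a PN14 replicate left out, 35 and 40 members differed 2-fold from PN2 to PN14. Under library size alone 5 of the 37 named members changed sign from PN2 to PN14, Mrpl10 (-0.39), Mrpl19 (-0.11), Mrpl22 (-0.18), Mrps2 (-0.21) and Mrps22 (-0.12), 18 kept their direction but lost the call, 3 kept direction and call, and 11 kept their direction and were called under neither scaling. DESeq2's Wald test left all 37 on the same side. The cause of these differences was not tested. No paired analysis was possible because only PN14 has more than 1 library.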
